A study of Homo sapiens with 6 samples.

Results

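The nuclear genes of respiratory complex I were followed in HEK293 cells labelled as deleted for CASP8AP2 and in the parental cells. The genes were taken by name, as every gene called NDUFA, NDUFB, NDUFC, NDUFS, NDUFV, NDUFAB or NDUFAF with a number, which gave 46 of the 56794 genes listed, 38 with a subunit name and 8 assembly factors named NDUFAF. HEK293 is a human embryonic kidney line used to make recombinant protein, and both groups carried a luciferase reporter. The parental group had 3 RNA-seq libraries of cells with the genotype Parent, and the mutant group had 3 libraries of cells with the genotype CASP8AP2 Mutant, made with CRISPR. The protein (FLASH) is needed for histone messages to be processed. Neither the deleted stretch nor whether the mutant line is a single clone is given in the labels.

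Complex I passes electrons from NADH to ubiquinone and pumps protons across the inner mitochondrial membrane. It is shaped like an L, with a matrix arm that binds NADH and carries the iron-sulfur clusters and a membrane arm that pumps protons. Core subunits carry out the chemistry and are shared with bacteria, while the accessory subunits surround them and stabilise the complex. Assembly factors join the modules together and leave before the complex is finished. The subunits of the membrane core are encoded by mitochondrial DNA, so nuclear and mitochondrial messages must meet in 1 complex.

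The deposited table gave 1 mean per group and transcript and no value for a single library, so each gene is described below by its mutant and parental level and no spread between libraries can be given. The level is the sum over transcripts of the group mean of a length-scaled abundance, and the log2 ratio sets mutant against parental, each with 1 added. Reads on transcripts, estimated from the steps in low values, numbered 13300000 to 57510000 in the mutant and 9190000 to 15310000 in the parental libraries, and the deepest mutant library had 6.27 times the reads of the shallowest parental one; its part in the results was not tested. At the parental level, a member would have 88 (NDUFAF1) to 1360 (NDUFS5) reads in the shallowest library, with a median of 599, so that counting error is largest for NDUFAF1. The labels do not say that replicates were separate cultures, so p-values measure only the spread between these samples, which may be technical. The level of CASP8AP2 RNA itself was 15.7 in mutant and 15.9 in parental libraries. Of 7 genes that HEK293 cells express, 3 were higher and 4 lower: VIM stood at 530 against 425, while the neurofilament genes were far apart, NEFL at 434 against 35.7 and NEFM at 0.0690 against 8.63. Among the lower ones were also INA, at 0 against 6.11, and KRT8, at 37.3 against 70.6. Of 8 markers of other cell types 1 reached a level of 1 (COL1A1, 5.82 against 2.17), and the blood cell genes CD3E and HBB were listed at 0 in both groups. The part of these differences in the results was not tested.

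Most complex I genes lay lower in the mutant libraries, by small amounts, and none passed the adjusted threshold. Of the 46 genes 32 were lower and 14 higher, and their median log2 ratio was -0.23, with quartiles at -0.36 and 0.03, against 50.6% lower and 49.4% higher and a median of -0.01 over all 14856 genes with a level of at least 1 in either group. All 46 members passed that filter. Abundant genes as a whole also lay lower: of 3464 genes with a mean level from 20 to 250, 58.5% were lower, with a median of -0.09. The summed level of the members was 2779 in the mutant and 3115 in the parental group, or 0.560% and 0.628% of all abundance. A log2 ratio of -0.5 or below was held by 8 members (background 11.3% of genes), and of 0.5 or above by NDUFV1 alone (background 11.5%). Whether fewer cells expressed a gene or each cell held less of its RNA cannot be told apart in these bulk libraries.

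By the adjusted p-values of the authors' deposited table, 0 of 364 member transcripts were called at 0.05, where 0.0221% of all transcripts were (0.0135% higher and 0.00854% lower). NDUFB3-201 had the smallest adjusted p among them, 0.356. Unadjusted p-values under 0.05 were held by 31 of the 364 (8.52%), 17 lower and 14 higher, from 22 genes, against a background of 5.79% (3.3% higher and 2.48% lower). Under 0.01 there were 9, of which 5 were higher and 4 lower, against 1.75% (0.97% higher and 0.779% lower). When each gene was represented by its main transcript, 0 of 46 members were called after adjustment, against 0.0404% of genes (0.0135% higher and 0.0269% lower), and 5 of 46 had an unadjusted p under 0.05, against 13.8%. The 3 lower ones were NDUFB3, NDUFB4 and NDUFA11 (background 8.63%), and the 2 higher ones were NDUFV3 and NDUFA3 (background 5.17%). At an unadjusted p under 0.05 the shares lay above the background for transcripts and below it for genes. Lower transcripts (17 of 364, background 2.48%) lay further above it than higher ones (14 of 364, background 3.3%). The difference of these shares from the background was not tested.

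**Figure D1:**
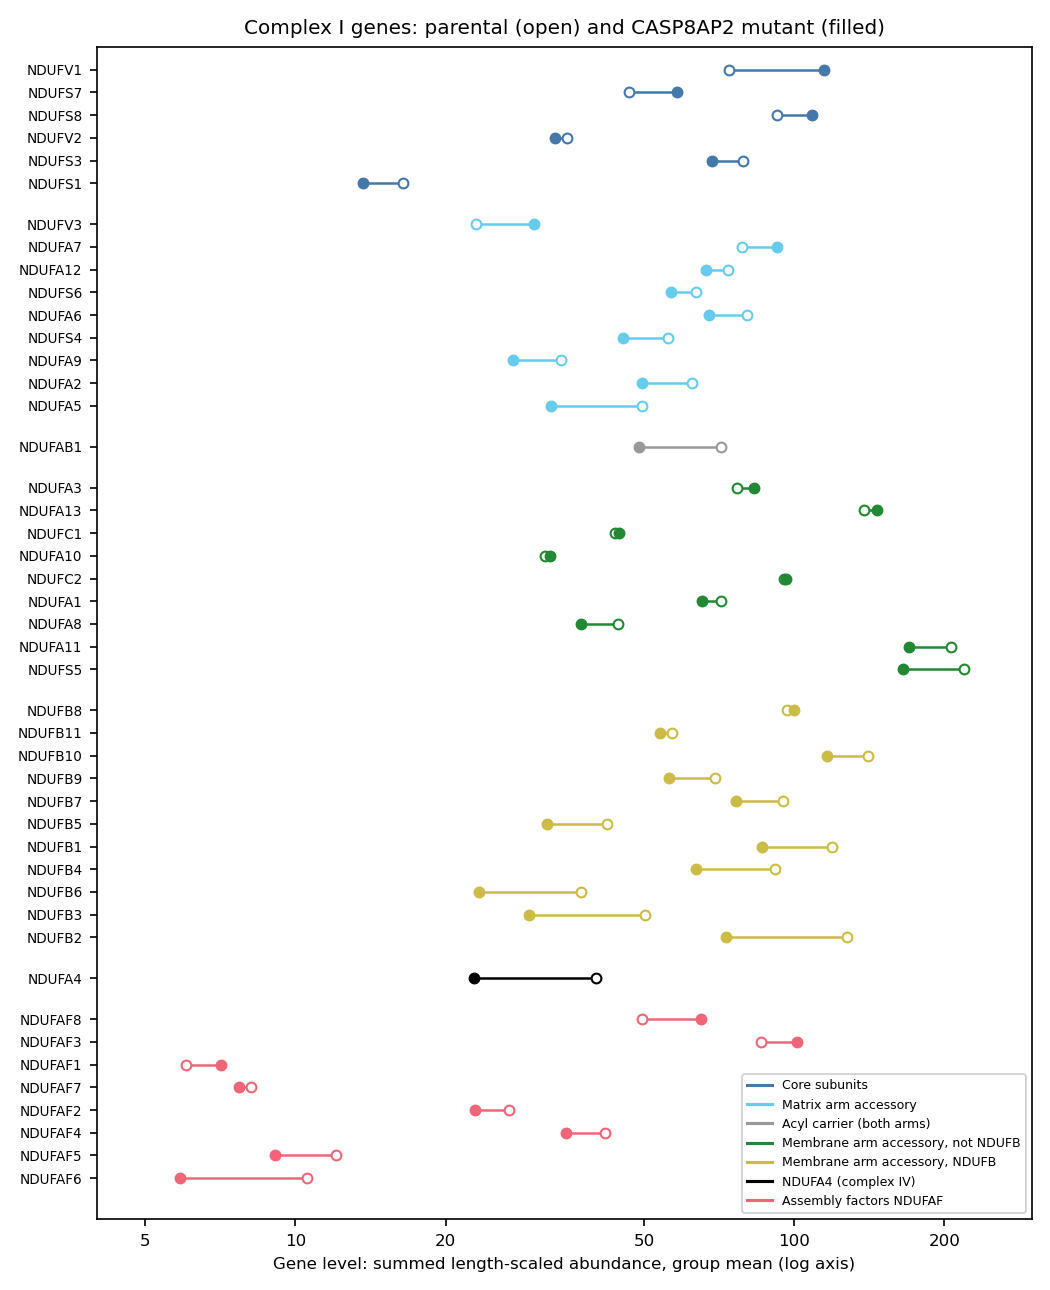
Level of 45 of the 46 genes in the parental (open circle) and mutant group (filled circle) on a log axis, in units of summed length-scaled abundance, grouped by role. Filled circles lie left of open ones for 31 of the genes shown, among them 10 of the 11 NDUFB genes, and right of them for 14, with the longest step to the right at NDUFV1.

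The 7 nuclear core subunits were split, 3 above and 4 below the parental level, and their median log2 ratio was -0.08. NDUFV1, which holds the flavin that takes electrons from NADH, is a gene of chromosome 11 (67605653 to 67612554, plus strand, hg38). Its level was 115 in the mutant and 73.9 in the parental group, a log2 ratio of 0.63 and the highest of all members. NDUFS8, an iron-sulfur subunit of the same arm, starts 418063 bases further along chromosome 11 (68030617 to 68036644) and stood at 108 against 92.3, a log2 ratio of 0.23. NDUFS7, which carries the last iron-sulfur cluster before ubiquinone (chromosome 19, 1383527 to 1395589), had 58.3 against 46.7, a log2 ratio of 0.31. Its main form is marked for nonsense-mediated decay, and coding forms held 27.9% of its level in the mutant and 27.3% in the parental group. The other core genes had log2 ratios from -0.25 for NDUFS1 to -0.08 for NDUFV2. NDUFS1, which carries several iron-sulfur clusters, was the least abundant core gene, at 13.6 against 16.4, and its most abundant transcript alone was at -0.03.

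Among the 9 accessory subunits of the matrix arm, 7 lay below and 2 above the parental level (median log2 ratio -0.25). NDUFV3, an accessory subunit beside the NADH site (chromosome 21, 42879644 to 42913304), had 30.1 in the mutant and 23.0 in the parental group, a log2 ratio of 0.37. For its main transcript NDUFV3-202 the authors' deposited table gives p = 0.00583 and adjusted p = 0.504. The longer NDUFV3-201 lay on the same side, at 7.10 against 5.67 (p = 0.0205 in the authors' deposited table). NDUFA7 was the other higher gene, at 92.5 against 78.8. At the low end stood NDUFA5, an accessory subunit of the ubiquinone module (chromosome 7, 123536997 to 123558255), at 32.6 against 49.6 and a log2 ratio of -0.59. By its most abundant transcript alone, NDUFA5-202 (13.4 against 15.7, p = 0.518 in the authors' deposited table), the ratio was -0.21. NDUFA9, NDUFS4, NDUFA2, NDUFA6, NDUFS6 and NDUFA12 had ratios from -0.32 to -0.14.

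The 9 accessory subunits of the membrane arm outside the NDUFB series had 5 higher and 4 lower, and their median log2 ratio of 0.01 became -0.13, with 3 higher and 6 lower, once the trend of all genes with GC content was taken out. NDUFA3, a small subunit next to the ubiquinone module, stood at 83.0 against 76.8, and its main transcript NDUFA3-203 at 55.8 against 48.5, for which the authors' deposited table gives p = 0.0335, adjusted p = 0.703. NDUFA11, at the inner end of the arm (chromosome 19, 5891276 to 5904006), had 170 against 207, and for NDUFA11-201 the authors' deposited table gives p = 0.0338, adjusted p = 0.703. NDUFS5, which faces the intermembrane space, was the most abundant member in the parental group, at 165 against 220. NDUFA8 was at a log2 ratio of -0.24, and NDUFC2, NDUFA10, NDUFC1, NDUFA13 and NDUFA1 lay between -0.13 and 0.08. Most of the NDUFC1 level was NDUFC1-202, a form not marked as coding. The coding forms of NDUFC1 had 10.7 against 6.78, a log2 ratio of 0.58.

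The NDUFB genes, accessory subunits of the outer membrane arm, lay lower almost throughout: 10 of 11 were lower and NDUFB8 was at 0.05, with a median log2 ratio of -0.39 and sums of 710 against 927. NDUFB2 (chromosome 7, 140690777 to 140722790) had a level of 73.1 against 127, and its log2 ratio of -0.79 was the lowest of all members. NDUFB2-201 has p = 0.0505 in the authors' deposited table. NDUFB3 (chromosome 2, 201071433 to 201085750) stood at 29.4 against 50.1, and its transcript NDUFB3-201 at 17.5 against 34.1 (p = 0.00147 in the authors' deposited table). NDUFB6 (chromosome 9, 32552999 to 32573184) had 23.3 against 37.4 and a log2 ratio of -0.66. NDUFB4 (chromosome 3, 120596309 to 120602500) had 63.4 against 91.7, and NDUFB4-201 stood at 48.1 against 71.8, where the authors' deposited table gives p = 0.00623 and adjusted p = 0.511. Nearest to 0 were NDUFB8, and NDUFB11 at 53.8 against 56.8. NDUFB3 and NDUFB4 were the 2 of 11 that were lower with an unadjusted p under 0.05 for their main transcript, against 8.63% of all genes, and nothing particular to the NDUFB genes can be read from 2.

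The acyl carrier protein NDUFAB1, which sits in both arms and also serves fatty acid synthesis in mitochondria, stood at 48.8 against 71.3, a log2 ratio of -0.54. NDUFA4 carries a complex I name but is a subunit of cytochrome c oxidase (complex IV). It stood at 22.8 against 40.05 (chromosome 7, 10931951 to 10940256), and its log2 ratio of -0.79 was next to the lowest. Its relative NDUFA4L2, a gene known to respond to low oxygen, stood at 3.10 against 2.88. Without NDUFA4 the remaining 37 subunit genes had a median of -0.24, against -0.25 with it.

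**Figure D2:**
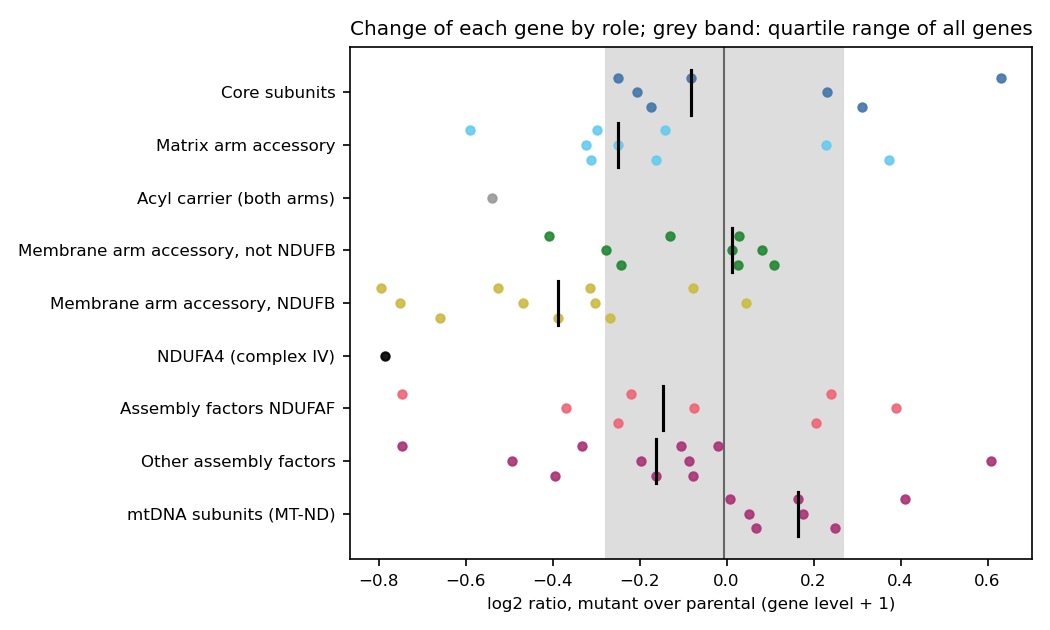
Log2 ratio of mutant over parental for each gene (points) by role, with the median of each role (black bar), the median of all genes (grey line) and their quartiles, -0.28 and 0.27 (grey band). The NDUFB genes have the lowest median of the roles with more than 1 gene, at -0.39, and the 7 mitochondrial MT-ND genes all lie right of 0.

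The 8 assembly factors lay on both sides of 0: 3 were higher and 5 lower, from -0.75 to 0.39. NDUFAF1, part of the assembly complex that builds the inner membrane arm, had 7.10 in the mutant and 6.02 in the parental group, a log2 ratio of 0.21 that was 0.39 by its main transcript. NDUFAF2, a relative of the subunit NDUFA12 that holds its place before the NADH module docks, had 22.9 against 26.8, and NDUFA12 itself had 66.7 against 73.7. NDUFAF7, a methyltransferase, stood at 7.69 against 8.15. NDUFAF6, an early factor for the mitochondrial subunit ND1, had 5.88 against 10.5, a log2 ratio of -0.75.

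Factors known to work as partners lay on opposite sides of 0, but the sizes depended on the setting. NDUFAF3 and NDUFAF4 bind each other on the ubiquinone module. NDUFAF3 stood at 101 against 85.8, a log2 ratio of 0.24, and NDUFAF4 at 34.9 against 41.7, a log2 ratio of -0.25. NDUFAF5 hydroxylates NDUFS7, and NDUFAF8 stabilises NDUFAF5. NDUFAF5 had 9.11 against 12.1, a log2 ratio of -0.37, and NDUFAF8 (chromosome 17, 81239239 to 81241281) had 65.1 against 49.5, a log2 ratio of 0.39. With the GC trend taken out NDUFAF3 was at 0.02 and NDUFAF4 at -0.11, while NDUFAF5 was at -0.32 and NDUFAF8 at 0.22. By coding transcripts NDUFAF3 was at 0.05, NDUFAF4 at -0.61 and NDUFAF5 at -0.18, and by the main transcript alone NDUFAF8 was at 0.06. Of their 8 main transcripts 0 had an unadjusted p under 0.05, against 13.8% of all genes, and the smallest in the authors' deposited table was 0.0679 for NDUFAF1-201. Among all their transcripts 2 of 67 did (2.99%, against 5.79% of all transcripts), NDUFAF6-208 and NDUFAF3-203, both below 1 in abundance.

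Subunit genes and assembly factors differed in level far more than in ratio. The median level of the 38 subunit genes was 57.4 in the mutant and 70.3 in the parental group, and that of the 8 assembly factors was 15.998 and 19.4. The median log2 ratio was -0.25 for subunit genes, 27 of 38 being lower, and -0.15 for assembly factors, 5 of 8 being lower. The gap between the medians was -0.10, while the ratios within either class spanned more than 1 log2 unit. The summed level of the subunit genes was 2525 against 2874, and that of the assembly factors 254 against 241, the latter set mostly by NDUFAF3 and NDUFAF8. With 1 mean per group no test of the class difference over libraries was possible.

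The ratios followed the base composition of the messages. Taking the GC content of each gene's most abundant transcript, the 16 members of lowest GC (31.6% to 46.4%) had 15 lower and 1 higher, NDUFAF1, with a median log2 ratio of -0.38. The 15 members of highest GC (54.4% to 66.7%) had 9 higher and 6 lower, with a median of 0.08. Across the 46 genes Pearson's r was 0.59 and Spearman's rho 0.56, against 0.28 and 0.30 across all 14740 genes with a known GC content. Across the 3447 of these with a mean level from 20 to 250 they were 0.34 and 0.37. Genes share their libraries, so these are descriptions. Transcript length gave an r of 0.01. The partner factors that lay apart differ in the same way: NDUFAF4 and NDUFAF5 have 34.6% and 46.4% GC, and NDUFAF3 and NDUFAF8 62.3% and 60.2%. The NDUFAF8 value is that of NDUFAF8-201, whose own log2 ratio was 0.06.

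After the running median of all genes by GC was taken out, the members' median was -0.20, with 34 lower and 12 higher. All 11 NDUFB genes were then lower, with a median of -0.44. NDUFV1 remained the highest at 0.44, followed by NDUFV3 at 0.33, while NDUFS8 was at 0.00 and NDUFS7 at 0.07. NDUFA11 was then at -0.49 and NDUFB7 at -0.55. The assembly factors had a median of -0.04, with 4 on each side. NDUFA3, which was higher before, was at -0.06. What the GC relation comes from was not tested.

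**Figure D3:**
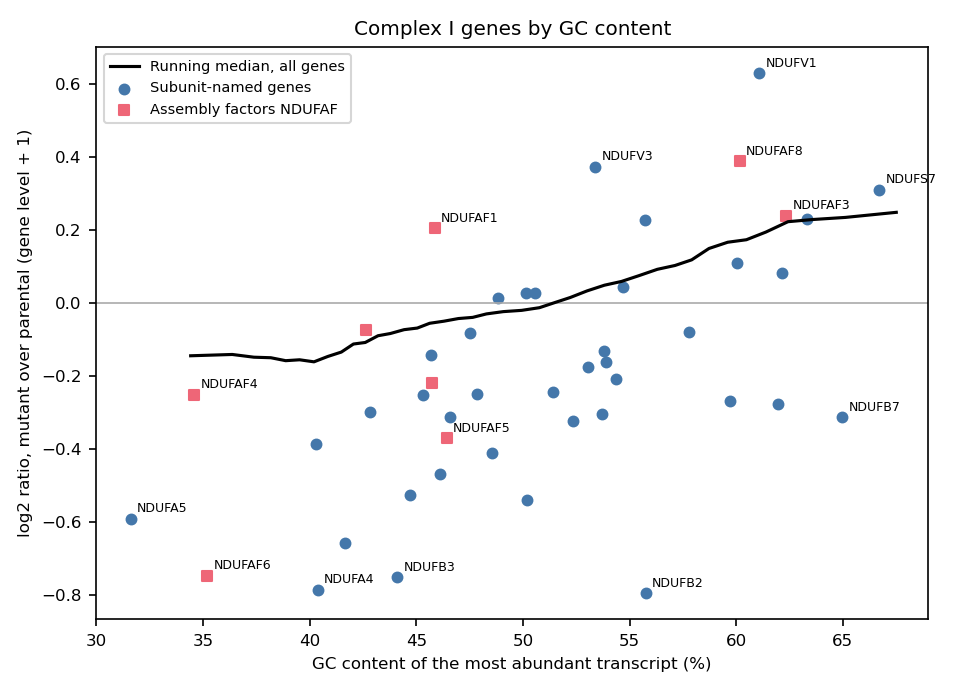
Log2 ratio of mutant over parental against the GC content of the most abundant transcript, for subunit-named genes (circles) and NDUFAF assembly factors (squares), with the running median of all genes (line). Members of higher GC have higher ratios, as the line does, most lie below it, and NDUFV1 stands 0.44 above it while NDUFB2 stands 0.88 below.

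The base composition can be read from the messages. The central 90 coding bases of 6 members are shown from GENCODE release 29, in the most abundant coding transcript with an annotated start and stop, with every G and C in capitals. They are a pair of lower subunit genes, a pair of higher ones and the partner factors NDUFAF5 and NDUFAF8, chosen with their ratios known.
NDUFB3: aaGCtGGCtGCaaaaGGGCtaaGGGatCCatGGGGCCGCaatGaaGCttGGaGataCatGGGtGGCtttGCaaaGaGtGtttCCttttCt
NDUFA5: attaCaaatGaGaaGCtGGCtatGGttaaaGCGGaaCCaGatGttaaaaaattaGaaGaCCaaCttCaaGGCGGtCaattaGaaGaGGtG
NDUFV1: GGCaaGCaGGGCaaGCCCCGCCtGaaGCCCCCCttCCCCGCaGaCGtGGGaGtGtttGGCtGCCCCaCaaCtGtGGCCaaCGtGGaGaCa
NDUFS7: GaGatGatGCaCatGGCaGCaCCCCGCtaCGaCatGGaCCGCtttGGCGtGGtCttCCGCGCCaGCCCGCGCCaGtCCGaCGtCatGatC
NDUFAF5: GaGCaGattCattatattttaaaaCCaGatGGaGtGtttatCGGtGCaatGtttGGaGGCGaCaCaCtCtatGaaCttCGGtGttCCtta
NDUFAF8: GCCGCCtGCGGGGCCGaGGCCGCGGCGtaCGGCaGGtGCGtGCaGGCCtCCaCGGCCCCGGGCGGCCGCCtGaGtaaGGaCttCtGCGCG
In the 90 bases shown GC was 50% in NDUFB3, 38.9% in NDUFA5 and 40% in NDUFAF5. It was 66.7% in NDUFV1, 64.4% in NDUFS7 and 78.9% in NDUFAF8. Over the whole coding sequence GC was 42.9% in NDUFB3 and 40.6% in NDUFA5, the lower subunit genes, against 60.5% in NDUFV1 and 66.2% in NDUFS7, the higher ones. It was 46.8% in NDUFAF5 and 74.8% in NDUFAF8. The NDUFAF8 form shown, NDUFAF8-201, was nearly level, at 41.5 against 39.9. The gene's difference lay mostly in NDUFAF8-205 (22.3 against 8.26), whose whole transcript has 54.8% GC. By the GC of whole main transcripts, 6 of the 15 members of highest GC go against the order and were lower. They are NDUFB2 (55.8%, log2 ratio -0.79), NDUFB7 (65.0%, -0.31), NDUFA11, NDUFB10, NDUFS3 and NDUFB11. Of the 16 members of lowest GC, 1 was higher, NDUFAF1.

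Within several genes the transcripts differed in direction or size. NDUFB10, a membrane arm subunit held by disulfide bonds, stood at 117 against 141 as a gene, but NDUFB10-201 had 99.99 against 97.1 and the longer coding form NDUFB10-202 had 13.6 against 36.0, a difference in abundance with p = 0.0496 in the authors' deposited table. The share of NDUFB10-202 in the gene was 11.6% in the mutant and 25.6% in the parental group, and the share itself was not tested. In NDUFAF8 the main form NDUFAF8-201 had 41.5 against 39.9, and the shorter coding form NDUFAF8-205 had 22.3 against 8.26 (p = 0.0775 in the authors' deposited table). The gene's higher level thus lay in the shorter form. In NDUFB3 the difference lay in NDUFB3-201 and in NDUFB3-202 (6.33 against 10.8), and NDUFB3-204 stood at 5.35 against 4.95. The main forms of NDUFV1 were all higher, while the minor NDUFV1-209 had 2.21 against 3.09: NDUFV1-201 had 41.4 against 29.7 (p = 0.369 in the authors' deposited table), NDUFV1-202 had 10.9 against 5.02 (p = 0.00564 there) and NDUFV1-211 had 8.21 against 4.23 (p = 0.0437 there).

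**Figure D4:**
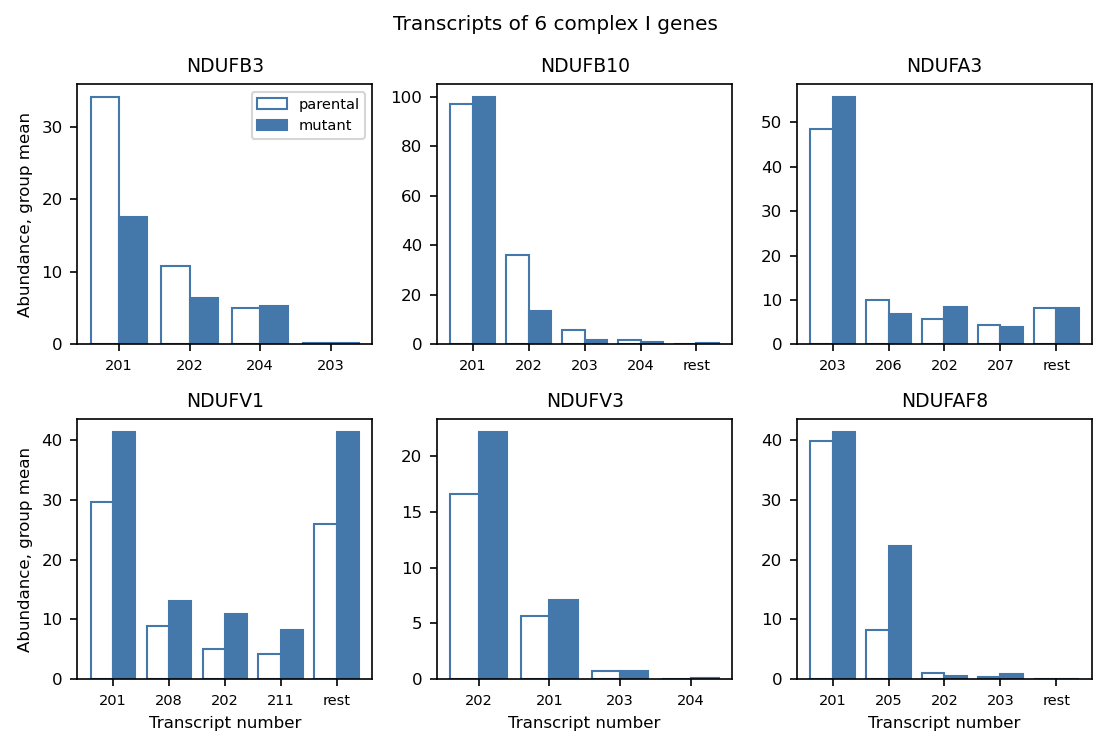
Abundance (group mean, bars from 0) of the 4 most abundant transcripts and of the rest of 6 genes, in parental (white) and mutant (blue) libraries. NDUFB10-202 stands at 13.6 against 36.0 beside a level NDUFB10-201, NDUFAF8-205 at 22.3 against 8.26 beside a level NDUFAF8-201, and every group of bars of NDUFV1 is higher in the mutant.

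Further transcripts with an unadjusted p under 0.05 and at least 5% of their gene's level were lower. NDUFA5-211 had 7.004 against 13.1 and NDUFB6-202 had 2.40 against 6.60. NDUFS1-201, the longest form of its gene, had 2.71 against 4.13, and NDUFA2-204 had 10.1 against 14.0. NDUFS4-206, a retained-intron form, had 6.26 against 8.97, and NDUFA3-206, a form marked for nonsense-mediated decay, had 6.89 against 10.1 while the coding NDUFA3-203 was the higher one.

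Coding transcripts held most of the signal in both groups. Over all members they made up 80.6% of the level in the mutant and 82.7% in the parental group, and retained-intron forms 9.70% and 8.15%. Over all protein-coding genes the same shares were 81.7% and 82.7%, and 10.6% and 9.68%. The assembly factors differed from the subunit genes here: coding forms were 60.5% and 61.6% of their level. Forms marked as processed transcripts were 13.3% and 15.9%, and retained introns 24.6% and 20.1%. The retained introns were mostly of NDUFAF3, whose main form NDUFAF3-206 is a retained-intron transcript at 37.7 against 28.4. The coding forms NDUFAF3-201 (30.1 against 28.7) and NDUFAF3-202 (9.77 against 10.3) were level. In NDUFAF4 the coding form NDUFAF4-201 had 9.50 against 15.0.

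Some members share reads with other loci. Pseudogenes with a summed level of at least 1 belong to 3 members: those of NDUFA5 had 6.79 against 11.5, those of NDUFB4 9.47 against 13.0, and that of NDUFV2 18.0 against 15.9. How reads were divided between copies was not given, so these 3 genes are uncertain. Exons of 19 members overlap another gene with a level of at least 1, for 15 of them on the opposite strand, and it is not stated that the reads were counted by strand. Of these, chosen after their values were seen, NDUFB2 overlaps ADCK2, at 27.5 against 19.6, and NDUFS1 overlaps EEF1B2, at 220 against 258. NDUFA7, a higher member, overlaps RPS28 on the opposite strand, at 79.1 against 60.9. NDUFS3, a lower member, overlaps PTPMT1 on the same strand, at 50.2 against 35.2. The part of overlaps in the levels was not tested.

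Promoters of complex I genes are known to hold sites for NRF1, a regulator of respiratory genes, and for YY1. RefSeq promoters on GRCh38.p14, from 250 bases before to 50 after the start, were matched for 39 of the 46 members. The NRF1 letters, GCGCA and GCGC with any base between them, sought as all motifs here on both strands, stood in 7 of 39 (17.9%), against 6.28% of 27305 promoters. They were NDUFA3, NDUFA8, NDUFA9, NDUFA11, NDUFA12, NDUFB4 and NDUFAF5, with a median log2 ratio of -0.28, against -0.15 for the 32 others. The YY1 letters AAGATGG stood in 7 of 39 (17.9%), all subunit genes, against 6.06% of promoters. In each of these 7, NDUFA3, NDUFA6, NDUFA7, NDUFA9, NDUFA12, NDUFS4 and NDUFS7, a match began 11 to 26 bases after the start. Their median ratio was -0.14, against -0.21 for the 32 of the 39 without the YY1 letters. The ETS letters CCGGAAG stood in 6 of 39 (15.4%) against 10.7%. The SP1 letters GGGCGG stood in 22 of 39 (56.4%) against 44.6%. In these members no NRF1 match overlapped a YY1 match.

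A pair of lower members show how the matches lie. The 180 bases before the start are printed 5′ to 3′ on the gene's strand, with NRF1 matches in capitals; NDUFB4 is on the plus strand at chr3:120596156-120596335 and NDUFA9 on the plus strand at chr12:4648934-4649113, both GRCh38.p14.
NDUFB4: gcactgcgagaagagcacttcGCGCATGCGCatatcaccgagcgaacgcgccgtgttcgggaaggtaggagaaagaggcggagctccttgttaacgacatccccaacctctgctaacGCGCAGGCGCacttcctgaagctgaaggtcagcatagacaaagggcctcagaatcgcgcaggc
NDUFA9: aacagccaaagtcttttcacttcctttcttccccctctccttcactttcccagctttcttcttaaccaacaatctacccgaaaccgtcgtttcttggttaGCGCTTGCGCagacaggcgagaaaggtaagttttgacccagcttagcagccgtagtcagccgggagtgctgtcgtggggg
The matches of NDUFB4 begin 159 and 63 bases before the start, and a further match begins 8 bases before it and runs past the printed end. The match of NDUFA9 begins 80 bases before the start. NDUFA9 stood at 27.3 against 34.1, and its main form NDUFA9-206 at 8.82 against 10.8 (p = 0.285 in the authors' deposited table). Of the 7 members with the NRF1 letters 6 were lower, against 20 of the 32 without them. The higher one was NDUFA3, at a log2 ratio of 0.11. Whether the letters go with the direction was not tested. A match is a description of letters and not a site of binding.

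Genes of known regulators of respiratory genes lay on both sides of 0. YY1 had 34.7 against 53.3, the lowest log2 ratio of the list, at -0.61. Its main transcript YY1-201 had 27.3 against 34.1 (p = 0.337 in the authors' deposited table). TFAM, which packs and transcribes mitochondrial DNA, had 20.2 against 30.5, a log2 ratio of -0.57. ESRRA, a nuclear receptor of respiratory genes, had 26.2 against 13.5, a log2 ratio of 0.91, and MYC had 89.3 against 69.2. NRF1 had 5.24 against 6.504. Of 15 regulators above the filter 5 were higher and 10 lower, with a median of -0.10, and after the GC trend was taken out 8 were higher and 7 lower, with a median of 0.01. Of the 15, 2 had an unadjusted p under 0.05 by main transcript, against 13.8% of all genes: for ESRRA-201 and GABPB1-201 the authors' deposited table gives unadjusted p = 0.0184 and 0.0447.

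Assembly factors without an NDUF name were 10 lower of 11, with a median log2 ratio of -0.16, and 8 lower of 11, with a median of -0.25, after the GC trend was taken out. TMEM70 (12.4 against 21.6) and TIMMDC1 (23.0 against 32.8), both factors of the membrane arm, were lowest, and FOXRED1 (13.9 against 8.78), an oxidoreductase-like factor, was highest, ahead of COA1 (41.4 against 41.999). NDUFAF1's partners in its complex had 10.4 against 13.3 for ACAD9, 21.8 against 24.5 for ECSIT and 24.7 against 32.9 for TMEM126B. By main transcript, TMEM126B and TMEM70 (lower) and DMAC2 (higher in that transcript, lower as a gene) had an unadjusted p under 0.05, 3 of 11 against 13.8% of all genes.

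The 7 subunits encoded by mitochondrial DNA were all higher, with a median of 0.16. MT-ND3 stood at 2655 against 1998 and MT-ND2 at 3044 against 2561, and MT-ND6 (1220 against 1213) and MT-ND5 (1575 against 1518) were nearest to 0. For MT-ND3-201 the authors' deposited table gives p = 0.0174. So the mitochondrial and the nuclear NDUFB subunits of the same arm had medians on opposite sides of 0, without a call on either. The 9 nuclear accessory subunits of that arm outside the NDUFB series had a median of 0.01, or -0.13 with the GC trend taken out.

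Nuclear genes of complexes II to V, from a list of 40, had 28 lower and 12 higher and a median of -0.14, against 32 lower and 14 higher and -0.23 for the complex I genes. Their share of lower genes was 70.0%, and that of the complex I genes 69.6%. The lowest was ATP5MF, at 135 against 250, and the highest ATP5MC2, at 390 against 269, both of ATP synthase. The shift of complex I genes was thus not shown to be particular to them.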

How the data were processed

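Per the labels' protocols, total RNA was made into libraries with the NEBNext Ultra kit and random primers. Per the submitters' processing notes, bcl2fastq, STAR and Partek were used with hg38; their versions and the annotation are not stated there. In the authors' deposited table, the score called LSMean is the group mean of an abundance plus 1, and the p-values, adjusted p-values, ratio and fold change are further deposited scores. The deposited signal headed total counts holds fractions and equalled 3 times the sum of both means. The adjusted p-values were Benjamini-Hochberg values over 140552 transcripts. The 62824 transcripts without a p-value held no signal and were set to 0.

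The members and lists were chosen with earlier results of these data known. Gene level was the sum of means minus 1; a gene entered when its level reached 1 in the mutant or the parental group. Transcripts were matched to GENCODE 29 (99.1%; 383 of 384 for members). The GC trend was a running median over 40 bins, averaged over 5, tested on simulated data. Read numbers came from the commonest steps in abundance times length among transcripts seen in 1 library. Named were all NDUFAF genes, members whose main transcript had a p under 0.05, the 6 highest and 6 lowest ratios, transcripts with a p under 0.05 and at least 5% of their gene, and the 2 highest and 2 lowest of other lists; further members were named after their values were seen. The values of 1 member are not reported here, though counts and medians include it. Only group means were given, so the deposited p-values were the only test. Tools were Python 3.11.15, pandas 2.3.3, NumPy 2.4.6, SciPy 1.17.1 and matplotlib 3.10.9.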

Additional observations from a re-analysis of the deposited data

How the results depend on the processing

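No paired analysis was possible because the table holds group means, and leaving out replicates, a replicate block, edgeR and DESeq2 were not run for the same reason. The members' median log2 ratio lay between -0.24 (0.1 added) and -0.16 (most abundant transcript only), and 31 to 34 members were lower under every alternative run. No member transcript was called at an adjusted p under 0.05 or 0.01. At an unadjusted p under 0.01, 4 were lower and 5 higher in place of 17 and 14, and with 1 transcript per gene 3 and 2. With the GC trend taken out the assembly factors' median was -0.0438 and the gap of subunits to them -0.169, and with other assembly factors added 15 of 19 were lower. Single genes that changed sign were NDUFA3 (-0.0607), NDUFA13 (-0.134), NDUFB8 (-0.0157) and NDUFAF7 (0.0317) with the GC trend taken out, NDUFA10 (-0.163), NDUFB10 (0.0419), NDUFB11 (0.0273) and NDUFC1 (-0.123) with the most abundant transcript, and NDUFA10 (-0.177) with coding transcripts only; the cause was not tested. The median of all genes crossed 0 with no filter (0.00574) and with the GC trend taken out (0.00165). Without values per library, depth limits and spread between libraries cannot be given beyond the deposited p-values.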
